A study of Mus musculus with 2 samples.

Results

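The genes described here encode the junctions that hold the intestinal epithelium together: tight junctions, adherens junctions and desmosomes. They were 31 named genes, listed by symbol and junction type with earlier results of these data known, among 18194 genes with a symbol on an Affymetrix mouse expression array. All 31 were found, at 75 probe sets among 45101. Each gene is represented by the probe set whose average of both pools was highest, called its brightest probe set, and its other probe sets are given beside it. The labels describe RNA of the proximal part of the intestine from wild-type (WT) C57BL/6 mice and from C57BL/6 mice with a germline deletion of Cd36 (CD36KO), a scavenger receptor that binds long-chain fatty acids and thrombospondin. Both groups were fed chow, and neither age nor sex is stated in the labels. The RNA of 3 animals was pooled before the array, so each genotype is 1 measurement (n = 1). No value below carries a replicate error, no test could be run, and a difference describes these pools and arrays only.

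Tight junctions close the space between neighbouring epithelial cells. Their strands are built from claudins, some of which leave a pore for small ions and water while others seal, and occludin and its relatives join them. Scaffold proteins in the plaque beneath tie the strands to actin, adherens junctions hold the cells together through cadherins and catenins, and desmosomes anchor the keratin filaments. In the small intestine the cation pores made by claudin-2 and claudin-15 let sodium return to the lumen, where it drives the uptake of sugars and amino acids.

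Of the 31 genes, 29 reached the expression filter, and all 29 did so in both pools. The filter asked for a log2 value of 4.51 in the higher pool, the value of the middle probe set of the array when ranked by its higher pool. Cldn2, the gene of the pore-forming claudin-2, was the 1 member whose brightest probe set was higher in CD36KO by 1.5-fold or more, and 0 members were lower by as much. Of all 11981 genes that reached the filter, 5.31% were higher by that factor and 3.31% lower. A count of 1 of 29 (3.45%) is thus no larger than the background. Of the 29, 19 (65.5%) had a difference above 0, and so did 48.8% of all genes. The median CD36KO minus WT difference was 0.11 (log2) over the 29 members and -0.0059 over all genes. For 16 of the 29 (55.2%) the difference was smaller than 0.25 in size, against 61.7% of all genes. By their median, the junction genes were therefore close to level between the pools, though a larger share of them was higher than of all genes. The rest of the account turns on single genes and on probe sets of the same gene that differed from each other.

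**Figure D1:**
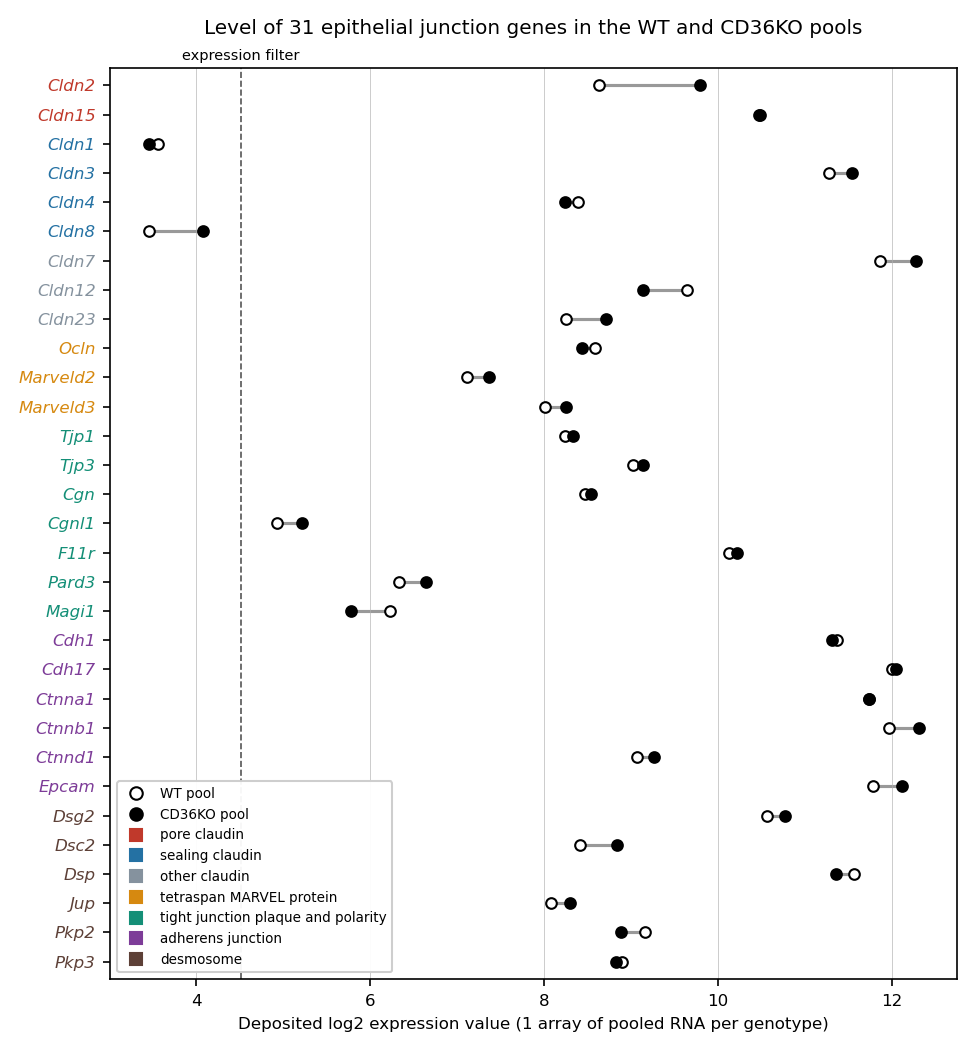
Deposited log2 value of each of the 31 junction genes at its brightest probe set in the WT pool (open) and the CD36KO pool (filled), with gene names coloured by junction group and the expression filter of 4.51 dashed. Cldn2 has the widest gap among genes above the filter, from 8.63 to 9.80, and Cldn1 and Cldn8 lie below the filter in both pools.

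The claudins that form pores did not move together. The sequences before the start of their genes are shown because this pair holds the 1 member past 1.5-fold and its functional partner. They are taken from RefSeq (GRCm38.p6), each 300 bases long on the plus strand, from 250 bases before to 50 after the annotated start. The windows are chrX:139800558-139800857 for Cldn2 and chr5:136967619-136967918 for Cldn15. Capitals mark every match, on either strand, to the TATA box TATAAA, to TTTAT, a core bound by the Cdx homeodomain factors of the gut, and to the GC box GGGCGG.
Cldn2: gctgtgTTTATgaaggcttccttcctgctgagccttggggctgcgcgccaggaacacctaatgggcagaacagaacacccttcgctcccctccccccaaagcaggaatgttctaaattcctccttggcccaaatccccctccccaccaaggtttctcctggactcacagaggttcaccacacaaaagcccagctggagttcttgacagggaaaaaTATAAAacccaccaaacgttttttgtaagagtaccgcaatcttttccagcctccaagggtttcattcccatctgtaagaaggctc
Cldn15: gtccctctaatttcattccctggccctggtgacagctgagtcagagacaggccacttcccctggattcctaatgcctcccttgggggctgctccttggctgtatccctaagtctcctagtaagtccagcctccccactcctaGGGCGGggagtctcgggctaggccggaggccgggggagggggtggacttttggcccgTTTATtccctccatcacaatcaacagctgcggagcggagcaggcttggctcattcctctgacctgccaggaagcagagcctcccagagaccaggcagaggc

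The Cldn2 window held TATAAA 35 bases before the start, where it overlaps a reverse match to TTTAT, and a further TTTAT 244 bases before it. The Cldn15 window held TTTAT 51 bases and GGGCGG 108 bases before the start, and no TATAAA. These letters are common. TATAAA occurred in the windows of 15.7% of 27025 genes, TTTAT in 43.8% and GGGCGG in 38.2%. Of the 21 junction genes with a window in the RefSeq table, 5 held TATAAA, 10 held TTTAT and 18 held GGGCGG. A match describes the letters and is not evidence of a bound factor.

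Cldn2, which makes a pore for sodium and water and is known from crypts, read 8.63 in the WT pool and 9.80 in the CD36KO pool (probe set 1417231_at). The difference was 1.17 (log2), or 2.25-fold. Its second probe set, 1417232_at, read 4.70 in WT and 5.49 in CD36KO, a difference of 0.79 (1.72-fold). Cldn2 was therefore past 1.5-fold at each of its probe sets, the second lying just above the filter in WT. Among all genes above the filter, 128 had a higher difference than Cldn2.

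Cldn15, the other cation pore of the small intestine, read 10.48 in WT and 10.47 in CD36KO at its only probe set, a difference of -0.0078. The difference of Cldn2 exceeded that of Cldn15 by 1.18 (log2), so the Cldn2 signal relative to the Cldn15 signal was 2.26-fold higher on the CD36KO array. The pore claudins thus split into 1 gene that was higher and 1 that was level.

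Several lists of cell type markers moved in the same direction as Cldn2. Above the filter, 4 of 6 Paneth cell markers were at least 1.5-fold higher (median 1.90), and so were 5 of 8 goblet cell markers (median 0.97). Of the distal small intestine markers, 5 reached the filter in both pools, and all 5 were higher by that factor (median 2.08). A further 2, Fgf15 and Slc10a2, reached it through CD36KO alone. For 11 crypt and proliferation markers the median was 0.11, and 1 passed 1.5-fold, the stem cell receptor gene Lgr5 (0.87). All 8 markers of the proximal small intestine were lower, 7 of them by 1.5-fold or more (median -1.06). Lists outside the intestinal epithelium were also higher. At least 1.5-fold higher were 5 of 6 fibroblast (median 1.21) and 5 of 7 smooth muscle markers (0.80). So were all 8 pancreas acinar markers that reached the filter in both pools (1.87). Leukocyte (0.42) and endothelial (0.26) markers that reached it in both pools had smaller medians. Stomach markers were split, 3 higher and 2 lower by that factor. The part of any of these differences in the Cldn2 value was not tested.

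Sealing claudins, which close the space to ions, showed small or uncertain differences. Cldn3, abundant along the gut, read 11.28 in WT and 11.54 in CD36KO at its brightest probe set, a difference of 0.26. Its other 3 probe sets read 11.17 and 11.56, 11.01 and 11.57, and 8.91 and 9.63, with differences of 0.39, 0.56 and 0.72. All 4 probe sets of Cldn3 were higher in CD36KO, the last of them past 1.5-fold. The suffixes of these probe sets (_x_at and _a_at) mark probes that can match further transcripts.

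Cldn4, whose gene is the direct neighbour of Cldn3 among protein-coding genes, read 8.39 in WT and 8.24 in CD36KO, a difference of -0.15. Neighbouring sealing claudins therefore differed in sign. Cldn1 lay below the filter at all of its 4 probe sets, the brightest reading 3.56 in WT and 3.46 in CD36KO. Cldn8, a claudin of tight distal epithelia, read 3.46 in WT and 4.08 in CD36KO. Its difference of 0.62 is past 1.5-fold, but both values are below the filter, where the table does not separate weak signal from background. Only 2 of 4 sealing claudins were thus measured above the filter, and none of these passed 1.5-fold at its brightest probe set.

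Claudins whose action depends on context, or is less settled, were kept apart from both classes. Cldn7, which also lies along the lateral membrane, read 11.86 in WT and 12.27 in CD36KO (0.41). Cldn23 read 8.25 and 8.71 (0.46). Cldn12 read 9.64 and 9.14 (-0.50), with its second probe set at 6.88 and 6.73 (-0.15). Cldn12 was the member with the lowest difference above the filter, and it stayed within 1.5-fold. It is also the member closest to Cd36 on chromosome 5, with 48 protein-coding genes between them. Over the 7 claudins above the filter, 4 were higher and 3 lower.

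The genes of the tetraspan proteins that accompany claudins stayed within 1.5-fold, with a median of 0.25 at their brightest probe sets. Ocln, the gene of occludin, read 8.58 in WT and 8.43 in CD36KO (-0.15) at its brightest probe set and 8.39 and 8.53 (0.13) at the other. Its sign depends on the probe set. Marveld2, the gene of tricellulin, which seals the points where 3 cells meet, read 7.11 and 7.37 (0.25). Marveld3 read 8.01 and 8.26 (0.25), and its other probe sets differed by 0.12 and, below the filter, by 0.18. The difference of Cldn2 exceeded that of Ocln by 1.32 (log2).

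The plaque of the tight junction differed little. Tjp1, the gene of the scaffold ZO-1, read 8.24 in WT and 8.33 in CD36KO (0.092) at its only probe set. Tjp3, the gene of ZO-3, read 9.03 and 9.14 (0.11). F11r, the gene of the junctional adhesion molecule JAM-A, read 10.13 and 10.22 (0.096). These members were all higher in CD36KO by less than 0.12 (log2).

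Cgn, the gene of cingulin, which links the plaque to actin and myosin, read 8.47 in WT and 8.54 in CD36KO (0.062), with a dim probe set at 4.85 and 4.42 (-0.44). Its relative Cgnl1 read 4.92 and 5.21 (0.29), with another probe set above the filter at 4.91 and 4.48 (-0.43). Pard3, a polarity scaffold that helps place the tight junction, read 6.33 and 6.64 (0.31), with another probe set at 6.57 and 6.32 (-0.26). In these 3 genes probe sets of similar or lower level had opposite signs, so no direction can be given for them. Magi1, a scaffold of tight and adherens junctions, read 6.23 and 5.78 (-0.46), and its other 4 probe sets were below the filter. One of these, at 3.75 and 3.02 (-0.73), was past 1.5-fold at values too low to be read. Over the 7 plaque and polarity genes at their brightest probe sets the median was 0.096, with 6 higher, 1 lower and none past 1.5-fold. The 6 include Cgn, Cgnl1 and Pard3, whose sign depends on the probe set.

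In the adherens junction the cadherins were level. Cdh1, the gene of E-cadherin, read 11.38 in WT and 11.31 in CD36KO (-0.064). Cdh17, the gene of the liver-intestine cadherin, read 12.00 and 12.05 (0.043). Ctnna1, the gene of alpha-catenin, which couples cadherins to actin, read 11.74 in both pools (-0.0065). Its other probe sets differed by -0.13 and -0.22 above the filter and by -0.24 below it. Epcam, an adhesion molecule of epithelial cells that stabilises claudins, read 11.78 and 12.11 (0.33), with 8.32 and 8.38 (0.060) at another probe set. None of these genes passed 1.5-fold at any probe set.

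The catenins that bind the cadherin tail gave a different reading at each probe set. Ctnnb1, the gene of beta-catenin, read 11.97 in WT and 12.31 in CD36KO (0.33) at its brightest probe set, 1420811_a_at. A further one, 1450008_a_at, read 8.84 and 9.94 (1.10, or 2.14-fold), and the dimmest, 1430533_a_at, read 5.86 and 7.69 (1.84, or 3.57-fold). All of these values are above the filter, so the gene was higher in CD36KO by anything from 1.26-fold to 3.57-fold depending on the probe set. Ctnnd1, the gene of p120-catenin, which keeps cadherins at the surface, read 9.07 and 9.27 (0.20), 8.23 and 8.94 (0.71, or 1.64-fold) and 5.54 and 5.42 (-0.12) at its probe sets. The median of the 6 adherens junction members at their brightest probe sets was 0.12, with 4 higher and 2 lower.

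Desmosomal genes were split in direction at their brightest probe sets, with 3 higher and 3 lower and a median of 0.072. This median depends on the probe set, at 0.26 when the probe sets of each gene are averaged and 0.15 with the one of smallest difference. Dsc2, the gene of the desmosomal cadherin desmocollin-2, read 8.41 in WT and 8.84 in CD36KO (0.43) and 7.69 and 8.06 (0.37) at its other probe set. Its partner Dsg2, desmoglein-2, read 10.56 and 10.77 (0.21) and 10.30 and 10.43 (0.13) at its brighter probe sets. A dimmer one of Dsg2 read 6.05 and 7.36 (1.31, or 2.48-fold), while another of similar level read 6.55 and 6.21 (-0.34). The probe sets of Dsc2 gave like differences and those of Dsg2 did not.

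Jup, the gene of plakoglobin, which links desmosomal cadherins to desmoplakin, read 8.08 in WT and 8.31 in CD36KO (0.23). Dsp, the gene of desmoplakin, which holds the keratin filaments, read 11.56 and 11.36 (-0.20) and 10.86 and 11.04 (0.17) at its brighter probe sets. Its dimmest read 4.43 and 5.34 (0.91, or 1.88-fold) and reached the filter through CD36KO alone. Pkp2, the gene of plakophilin-2, read 9.16 and 8.88 (-0.28), but 7.21 and 7.72 (0.51) at another probe set. Pkp3, the gene of plakophilin-3, read 8.90 and 8.83 (-0.062), but 6.51 and 6.97 (0.46) at another. Dsp, Pkp2 and Pkp3 thus had the opposite sign at a second probe set.

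**Figure D2:**
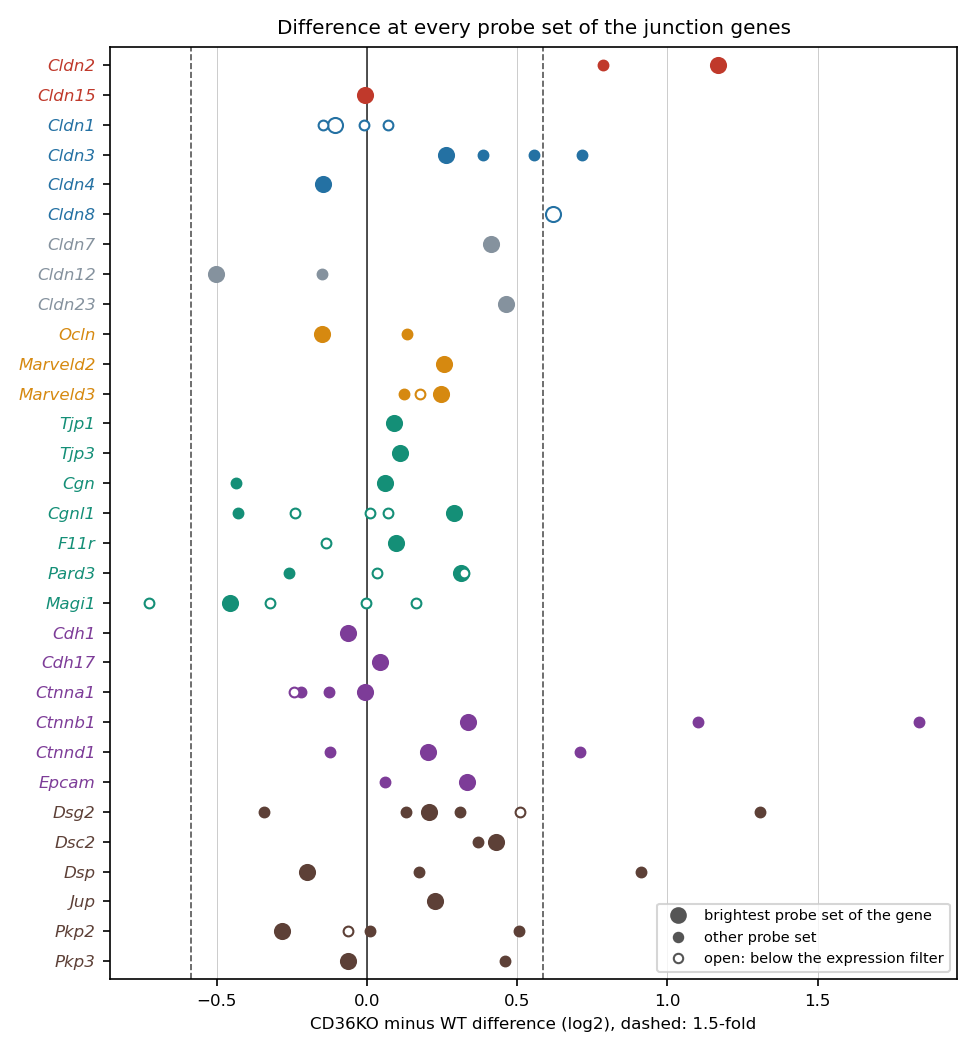
CD36KO minus WT difference (log2) at each of the 75 probe sets of the junction genes; large points are brightest probe sets, open points lie below the expression filter and dashed lines mark 1.5-fold. The points of Cldn2 lie at 0.79 and 1.17, those of Ctnnb1 spread from 0.33 to 1.84 and those of Dsg2 above the filter from -0.34 to 1.31.

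The choice of probe set therefore decided which members passed 1.5-fold. Counting any probe set above the filter, 6 of 29 members (20.7%) were at least 1.5-fold higher: Cldn2, Cldn3, Ctnnb1, Ctnnd1, Dsg2 and Dsp. The same count over all genes was 9.56%. No member was at least 1.5-fold lower at a probe set above the filter, against 5.02% of all genes. Members had 1.93 probe sets above the filter per gene and all such genes 1.63, and the part of this in either count was not tested. Of the 17 members with several probe sets above the filter, 9 (52.9%) had probe sets of both signs, close to the 52.2% of all such genes.

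The pools also differed in how evenly their RNA was covered. The control probe sets for beta-actin were higher in CD36KO by 0.98 (log2) at the 5' end, by 0.56 in the middle and by 0.043 at the 3' end. For GAPDH the same differences were 0.47, 0.15 and -0.10. Where the probe sets of the junction genes lie along their transcripts was not used here, and the part of this coverage in the spread among probe sets was not tested. In the 17 members with several probe sets above the filter, the dimmest had the higher difference in 8 and the lower in 9. Over all genes it had the higher difference in 57.3%.

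**Figure D3:**
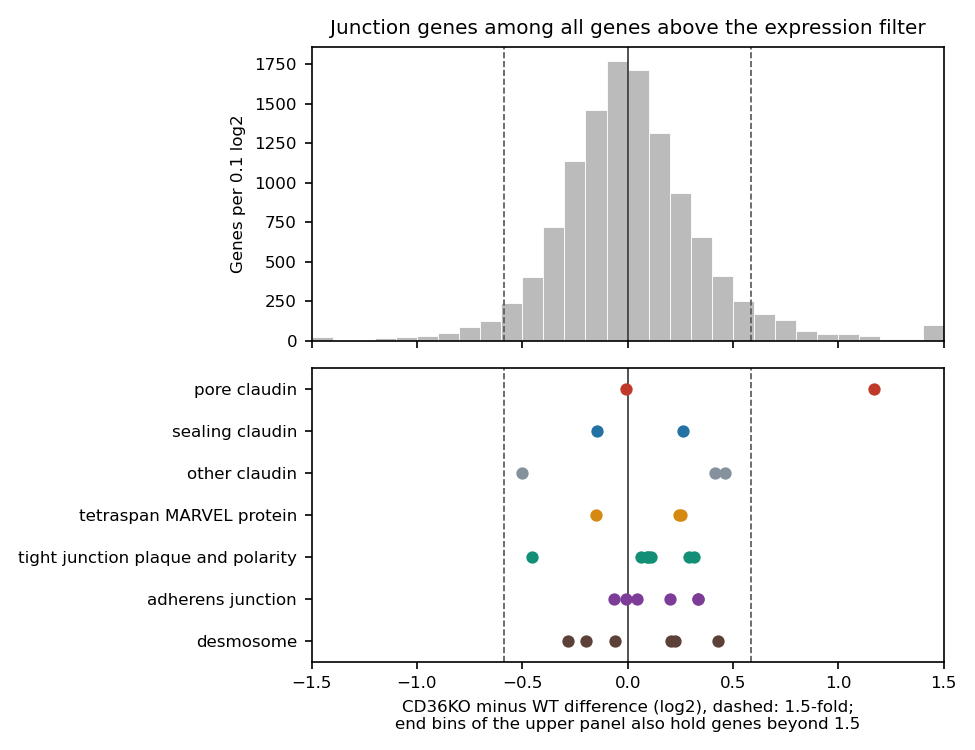
Upper panel, number of genes above the expression filter by CD36KO minus WT difference (log2, bins of 0.1); lower panel, the 29 junction members above the filter at their brightest probe sets, by junction group, with dashed lines at 1.5-fold. The members other than Cldn2 (1.17) lie between -0.50 and 0.46, inside the bulk of all genes.

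Other junction genes, taken from fixed lists of 101 genes of which 82 were matched and above the filter, were also close to level. Their median difference was 0.059. Of the 82, 4 were higher and 1 lower by 1.5-fold or more, beside 5.31% and 3.31% of all genes. Among 28 further tight junction and polarity genes the median was 0.059, and 1 passed 1.5-fold. This was Sympk, the gene of symplekin, at 7.31 in WT and 6.62 in CD36KO (-0.68). The next in size were Jam2 (0.54, with -0.46 at a probe set of similar level), Clmp (0.49 and 0.68) and Cxadr (0.45). Cxadr, the gene of the coxsackievirus and adenovirus receptor, differed by 0.92, 0.13 and -0.054 at its other probe sets above the filter. Lsr, the gene of angulin-1, which recruits tricellulin, read 9.82 and 10.14 (0.32).

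Among 17 further adherens junction genes the median was -0.047. The 1 past 1.5-fold was Cdh11, a cadherin of mesenchymal cells, at 5.17 in WT and 5.96 in CD36KO (0.79). Fibroblast markers moved with it, 5 of 6 being at least 1.5-fold higher with a median of 1.21, and their part in the Cdh11 value was not tested. Next in size were Iqgap1 (0.31), Vcl, the gene of vinculin (0.27), and Pkp4 (-0.22). The intermicrovillar cadherin genes Cdhr2 (-0.12) and Cdhr5 (-0.13) differed little.

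The desmosome and keratin list had a median of 0.22 over 12 genes, with 2 at least 1.5-fold higher and none lower. Krt7, a keratin of simple and ductal epithelia, read 7.79 in WT and 8.74 in CD36KO (0.95, or 1.93-fold). Krt19, a keratin of the intestinal epithelium, read 11.65 and 12.36 (0.70, or 1.63-fold). Krt18 (0.35) and Evpl, the gene of envoplakin (0.33), followed, while Krt8, which pairs with Krt18, read 13.31 and 13.35 (0.043). Krt8, Krt18 and Krt19 also belong to the intestinal epithelial marker list. The keratins past 1.5-fold were thus not joined by the desmosomal genes at their brightest probe sets. Of the pancreas acinar markers, 8 reached the filter in both pools, and all 8 were higher by 1.5-fold or more (median 1.87), while Prss3 reached it through CD36KO alone. Their part in the keratin values was not tested.

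Genes that regulate junctions had a median of 0.0033 over 21 genes. Rac1, a small GTPase of the actin cortex, read 10.48 in WT and 11.23 in CD36KO (0.75, or 1.68-fold), with 0.46 at another probe set. It was the 1 gene of this list past 1.5-fold at its brightest probe set. Ovol1 read 7.31 in WT and 7.10 in CD36KO (-0.21) at its brightest probe set. At a dimmer probe set it read 6.26 and 5.50 (-0.76, or 1.69-fold lower). Mylk, the gene of myosin light chain kinase, which opens tight junctions by contracting the cortex and is also abundant in smooth muscle, read 10.98 and 11.35 (0.37). Other probe sets of Mylk read 10.33 and 10.45 (0.12), and 5.35 and 6.54 (1.19). Smooth muscle markers had a median of 0.80, and their part in the Mylk values was not tested. Arhgef2 (0.35) and Arhgef11 (0.31), both genes of activators of RhoA, were next. St14 (-0.036), the gene of the protease matriptase that cleaves Epcam, and its inhibitor genes Spint1 (-0.17) and Spint2 (0.0033) differed little. Of 4 gap junction genes none passed 1.5-fold at its brightest probe set, Gjc1 (0.49) and Gja1 (-0.30) differing most. Another probe set of Gjc1 had the opposite sign (-0.18). So did 1 of Gja1 (0.28), while its others above the filter were at -0.11, -0.15 and -0.33. Gjb1 was at 0.039 with a dimmer probe set at 0.64, past 1.5-fold.

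**Figure D4:**
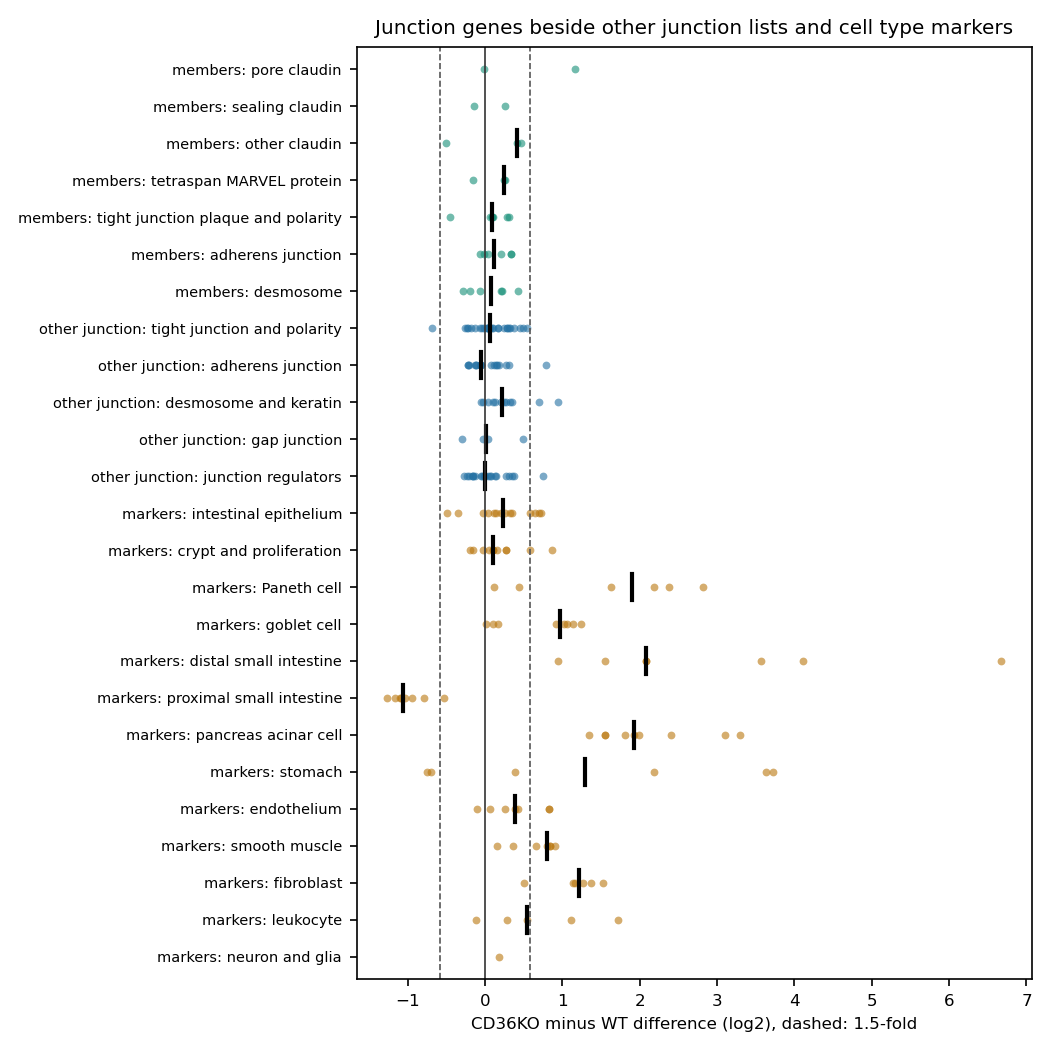
CD36KO minus WT difference (log2) of genes above the expression filter in the junction groups (green), the other junction lists (blue) and the marker lists (orange); each point is a gene at its brightest probe set and a black bar is the median of a list with at least 3 genes. The medians of the junction lists of at least 3 genes lie between -0.047 and 0.41, while the distal (2.08), pancreas acinar (1.93, with Prss3) and Paneth cell (1.90) medians lie to the right and the proximal median (-1.06) to the left.

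The tissue carried the epithelium these genes belong to. All 14 intestinal epithelial markers were above the filter in both pools, with a mean log2 value of 10.64 in WT and 10.87 in CD36KO. Their median difference was 0.23. Of the 14, 4 were at least 1.5-fold higher and 0 lower by as much, beside 5.31% and 3.31% of all genes. The brush border gene Vil1 was level, at 12.32 and 12.30. The median of the junction members (0.11) lay below that of the epithelial markers. In pooled tissue fewer cells of a type and less RNA per cell cannot be told apart. Cd36 itself was lower in CD36KO at each of its 3 probe sets, by 2.33-fold to 3.56-fold, though whether those probe sets lie in the deleted part was not examined.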

How the data were processed

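The authors deposited 1 table of log2 expression values for 2 arrays, as log2 follows from their range (largest value 14.19). Per the labels' protocols, RNA of 3 animals per genotype was pooled and 100 ng labelled. How they were summarized and normalized is not given in these sources, as no label states it. The array medians were 4.38 and 4.38. The table has no detection calls or background. With 2 arrays, their number limits the precision.

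Probe sets with exactly 1 gene symbol in the array annotation were used (34958, with 932 carrying several symbols and 9211 unnamed here). Of the fixed list genes 18 were not matched and are not analysed here. The CD36KO minus WT difference was computed with no further scaling and described by counts past 1.5-fold. Named were all members, up to 4 genes with the largest difference in each further junction list and all past 1.5-fold. Lsr, Krt8, Cdhr2, Cdhr5, St14, Spint1, Spint2, Ovol1, Vil1 and the genes of the closing section were added after their values were seen. Members, lists and classes of claudins were chosen with earlier results of these data known. Alternatives covered scaling, probe set choice, filter and threshold. The procedure was tested on simulated data and run with NumPy 2.4.6, pandas 2.3.3, matplotlib 3.10.9 and statsmodels 0.14.6 under Python 3.11.15.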

Additional observations from a re-analysis of the deposited data

How the results depend on the processing

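No paired analysis was possible because each genotype is 1 array, and for the same reason no replicate could be left out. Cldn2 was past 1.5-fold higher under every scaling and probe set choice tried, and the 31 members kept their side of 1.5-fold under median centring, quantile normalization and lowess removal. With the mean over probe sets, 2 of 27 members were at least 1.5-fold higher (Cldn2 and Ctnnb1, the latter at 1.09). The share of all genes there was 4.65%. With plain _at probe sets the count was 2 of 23 members (Cldn2 and Ctnnd1), beside 5.79% of all genes. Without the filter it was 2 of 31 (Cldn2 and Cldn8), beside 3.81%. At a lower threshold of 0.32 (log2) it was 6 of 29. With the highest probe set of each gene, chosen after seeing the data, it was also 6 of 29. At the threshold of 0.32 the count of lower members was 2. The share of all genes at least 1.5-fold higher was 1.61% at 2-fold, 14.7% at 0.32 and 9.56% with the highest probe set. The share lower was 0.626% at 2-fold, 12.9% at 0.32 and 2.15% with the probe set of smallest difference. The shifts with the threshold, and with the highest or smallest difference, follow from how those alternatives are built. The source of the other shifts was not tested. The median of the members stayed between 0.083 and 0.26, that of the desmosomal genes between 0.068 and 0.48 (highest probe set), and that of the adherens junction genes between 0.018 and 0.19. Without replicates or detection calls, differences of low values were not resolvable.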

Other observations

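Some junction genes of other cell types were measured as well. In the endothelium, Cldn5, its main sealing claudin, read 6.07 in WT and 6.34 in CD36KO (0.26), Esam read 6.22 and 6.60 (0.39), and Cdh5, the gene of VE-cadherin, read 5.41 and 5.30 (-0.11). Pecam1, an adhesion molecule of endothelial junctions, read 3.90 and 4.73 and reached the filter through CD36KO alone, as did Emcn. The 5 endothelial markers that reached it in both pools had a median of 0.26. Cldn18, the claudin of the stomach, read 3.66 and 4.39, below the filter in both pools, while the stomach markers above the filter were split, Gkn1 (3.73), Gkn2 (3.63) and Tff1 (2.19) being higher and Gkn3 (-0.76) and Tff2 (-0.70) lower by 1.5-fold or more, and Muc5ac within it (0.39). The neural cadherin gene Cdh2 also lay below the filter, at 3.73 and 3.49.

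Transcription factors of the gut epithelium from the marker list differed in both directions. Cdx1 read 7.95 in WT and 8.60 in CD36KO (0.65), and Cdx2 read 7.82 and 7.48 (-0.34), with 0.24 at a dimmer probe set. Klf5 read 10.65 and 11.24 (0.58), with -0.50 at another probe set. Hnf4a differed by 0.26 at its brightest probe set and by 0.33 and 0.21 at dimmer ones. A further probe set of Hnf4a, at 7.52 and 9.04, differed by 1.52.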
